A study of Mus musculus with 12 samples.

Results

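The response of mouse melanocytic cells to SX-682, an antagonist of the chemokine receptors CXCR1 and CXCR2, was compared between B16 melanoma cells and Melan-A melanocytes. For each gene the log2 change with SX-682 was averaged over the B16F0 and B16F10 lines, and the log2 change in Melan-A was subtracted. A positive difference therefore marks a gene that went up more, or down less, in the melanoma lines, and a negative difference the reverse. All 12 libraries of the series entered this comparison, and 18338 of the 34513 genes in the count table had enough counts to be tested. The contrast covers every gene that passed the filter on low counts, while the gene lists and the genes named were chosen with earlier results of these data known. Genes that moved in opposite directions, with a change in Melan-A of 1 sign and changes in both B16 lines of the other, receive most of the account that follows.

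The study sequenced RNA of cultured cells in 6 groups of 2 libraries each, namely Melan-A, B16F0 and B16F10 cells without treatment and the same lines with SX-682. Melan-A is an immortal mouse melanocyte line that the labels call nontumorigenic, and B16F0 and B16F10 are related lines from the same mouse melanoma, of which B16F10 was selected for its ability to colonize the lung. The controls are given as untreated, so that no group with the vehicle alone is part of the comparison, and the dose and duration of SX-682 for these libraries are not given in the sources used here. Nothing in the labels says that the replicates of a group came from separate cultures, so the p-values below measure the spread between these libraries only, which may be technical. Each condition of the contrast is represented by 1 melanocyte line and 2 related melanoma lines. A difference between malignant and non-malignant cells cannot be told apart from any other difference between these particular lines, such as their culture conditions.

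CXCR1 and CXCR2 are G protein-coupled receptors for a family of chemokines that includes CXCL1, and their activation feeds into the MAPK and PI3K pathways. Melanoma cells frequently secrete these chemokines themselves. Cells under stress adjust their RNA along several well-known routes. The transcription factor ATF4 raises genes for amino acid supply, XBP1 and ATF6 raise chaperones of the endoplasmic reticulum (ER), HIF-1 raises glycolytic genes, SREBP2 raises genes of cholesterol synthesis, and growth factor signals through MAPK raise immediate early genes such as Egr1.

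Library totals ran from 48876982 to 85322092 counts, and the chi-square per degree of freedom between the replicates of a group was 2.83 to 5.16, more than counting noise gives. The biological coefficient of variation was 2.78%, which lets small differences pass the test, and an exact permutation of 2 libraries against 2 cannot give a two-sided p below 0.333. The melanocyte markers Mlana, Pmel, Tyr, Tyrp1, Dct, Sox10 and Mitf summed to between 1340 and 1370 CPM, the read counts of a gene relative to the scaled library size, in the Melan-A libraries and to between 14900 and 24500 CPM in the B16 libraries. Tyr, the gene for the rate-limiting enzyme of melanin synthesis, was at 0.892 and 0.760 CPM in the Melan-A controls, so the libraries labelled as melanocytes held little RNA of this defining marker, while Sox10 was at 655 and 685 CPM there. Cdkn2a, which B16 cells are known to lack, had between 187 and 215 CPM in the Melan-A libraries and 0 counts in all B16 libraries. Fibroblast markers summed to between 93.3 and 115 CPM in Melan-A and to at most 15.1 CPM in B16, and keratinocyte and endothelial markers to at most 3.45 CPM in any library. The leukocyte markers rest on Cd68, a lysosomal protein gene, which rose in Melan-A, from 15.9 and 16.1 to 43.9 and 45.3 CPM in Melan-A, from 11.9 and 10.1 to 13.7 and 15.8 in B16F0, and from 26.6 and 25.4 to 24.0 and 24.9 in B16F10, and whose part in other results was not tested. Cxcr2 itself had 79 and 76 counts in the Melan-A controls, 34 and 47 with SX-682 and at most 1 count in any B16 library, and a difference in its response was not detectable at this depth (adjusted p = 1).

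B16 cells and Melan-A responded differently to SX-682 in 6559 of 18338 genes, or 35.8%, at an adjusted p below 0.05 in edgeR's quasi-likelihood test. It was higher in the B16 lines for 3431 genes (18.7%) and lower for 3128 (17.1%), and the median difference over all genes tested was 0.0198 on the log2 scale. Most of these differences were small. Their median size was 0.33 on the log2 scale, and 772 genes passed the test with a difference of at least 1, of which 462 were higher and 310 lower in the B16 lines. Both B16 lines differed from Melan-A in the same direction, each in its own test, for 3486 of the 6559 genes, which is 53.1%. The lines also differed from each other, since the responses of B16F10 and B16F0 differed in 5551 genes and 345 genes differed from Melan-A upward in 1 B16 line and downward in the other.

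The 6559 genes fell into several kinds of response. The largest named kind, with 1486 genes, changed in the same direction in all 3 lines and changed more in the B16 lines. A further 634 genes changed in the same direction in all 3 lines and more in Melan-A. Both B16 lines changed alike without a called change in Melan-A in 1174 genes, and Melan-A alone changed in 552. The B16 lines were called in opposite directions in 356 genes. No line passed its own test in 90 genes, and 1780 showed other patterns. The remaining 487 genes, 2.66% of those tested, moved in opposite directions in Melan-A and in both B16 lines.

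**Figure D1:**
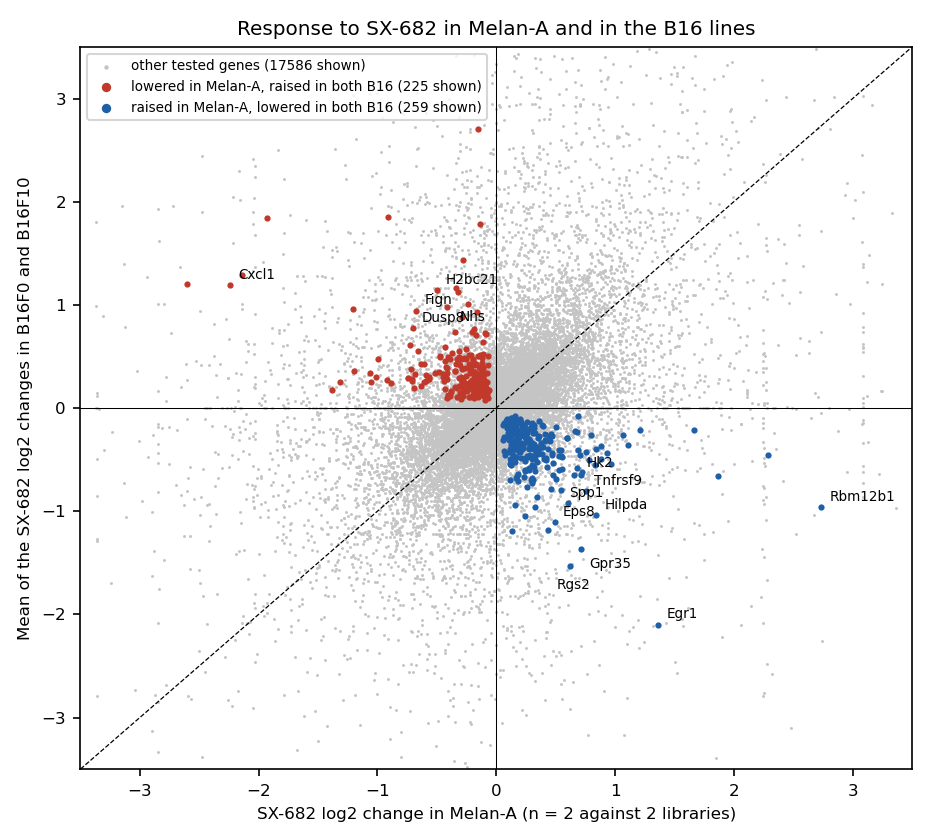
Log2 change with SX-682 in Melan-A (horizontal axis) against the mean log2 change of B16F0 and B16F10 (vertical axis) for each gene tested, from the edgeR fit (n = 2 libraries against 2 in each line). Red points fell in Melan-A and rose in both B16 lines, blue points did the reverse, grey points are all other genes tested, and the dashed line marks equal responses. The axes end at 3.5 in each direction, which leaves 268 genes outside, 3 of them opposite movers, and most colored points lie within a log2 change of 1 of the center.

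Of the opposite movers, 227 genes fell in Melan-A and rose in both B16 lines (1.24% of the genes tested) and 260 rose in Melan-A and fell in both B16 lines (1.42%). In 486 of the 487 genes both SX-682 libraries lay beyond both controls in every line. The class already required a called change in each line, so this adds no separate support. The changes were mostly modest, with a median of 0.168 for the smallest of the 3 log2 changes of a gene. In 19 genes every change was at least 0.5 on the log2 scale, and in 4 at least 1. Most of these genes were expressed in all 3 lines. The controls of every line averaged at least 10 CPM in 180 of the 227 and in 210 of the 260 genes, a limit chosen after the values were seen. The size of the response also differed between B16F0 and B16F10 in 214 of the 487.

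Among the genes that fell in Melan-A and rose in the B16 lines, Cxcl1 had the largest value of the smallest of its 3 changes, when genes with a mean log2 CPM of at least 1 are ranked so. Cxcl1 (ENSMUSG00000029380.11, chr5:90891241-90893115 in GRCm38) encodes a chemokine that binds CXCR2 and attracts neutrophils. Its level went from 0.637 and 0.671 to 0.196 and 0.0799 CPM in Melan-A, from 12.7 and 12.7 to 41.4 and 40.8 in B16F0, and from 79.4 and 81.5 to 132 and 127 in B16F10. In Melan-A these levels rest on 55 and 61 counts in the controls and 14 and 6 with SX-682, so the gene was near silent there and abundant in B16F10. Its log2 changes were -2.25, 1.70 and 0.69 in Melan-A, B16F0 and B16F10. The ranking took only genes whose libraries stood apart between conditions in all 3 lines. The B16 mean exceeded the Melan-A change by 3.44 (SE 0.282, adjusted p = 3.4e-11). The start of Cxcl1 is shown because NF-kappaB, the transcription factor of inflammatory signals, is known to act there. In the RefSeq promoter windows, which run from 250 bases before to 50 bases after a gene's start in GRCm38.p6, the NF-kappaB site was found in 6.35% of the 12315 tested genes with a window, on either strand, and in the Cxcl1 window the matching letters (in capitals) lie 61 bases before the start and overlap on both strands:
Cxcl1 (chr5:90891164-90891194, + strand): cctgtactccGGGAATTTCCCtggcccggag
A match of letters is a description of the sequence and does not show that a factor binds.

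The other genes of this kind named by the same ranking were Fign, G0s2, Dusp8, H2bc21, Lrp4, Il17ra, Nhs, Dram1 and Rgma. Dusp8, a phosphatase that switches off the stress kinases JNK and p38, went from 13.1 and 13.4 to 8.58 and 7.69 CPM in Melan-A, from 28.2 and 26.6 to 58.1 and 54.9 in B16F0, and from 21 and 23.1 to 31.0 and 31.8 in B16F10, with a difference of 1.48 (SE 0.0824, adjusted p = 7.5e-15). H2bc21, which encodes a histone H2B, went from 4.27 and 4.8 to 3.09 and 3.33 CPM in Melan-A, from 12.4 and 11.9 to 31.8 and 30.3 in B16F0, and from 15.8 and 14.7 to 29.1 and 29.1 in B16F10, a difference of 1.65 (SE 0.110, adjusted p = 4.5e-13). In both genes the B16 libraries with SX-682 were all higher than any Melan-A library, which the controls of B16 already were. G0s2, an inhibitor of fat breakdown, had 12 and 9 counts in the Melan-A controls and 0 and 0 with SX-682, at least 2.82-fold lower against a floor of 3 counts per library, while in B16F0 its log2 change was 0.95 and in B16F10 0.58. Rgma, a guidance molecule and coreceptor for bone morphogenetic proteins, was at 67.3 and 70.4 CPM in the Melan-A controls against 49.8 and 49.6 with SX-682, 17.0 and 15.5 in the B16F0 controls against 21.2 and 21.6 with SX-682, and 30.3 and 30.1 in the B16F10 controls against 46.9 and 46.1 with SX-682. Lrp4, a receptor known from the neuromuscular junction, had log2 changes of -0.43, 0.44 and 0.46 in Melan-A, B16F0 and B16F10. Il17ra, the receptor for interleukin 17, had -0.63, 0.43 and 0.42 from a level of 1.55 and 1.52 CPM in the Melan-A controls, and Fign, which encodes a microtubule-severing protein, -0.67, 1.30 and 0.58. Nhs was near the floor in B16F0, 3 and 7 counts against 13 and 9 with SX-682, and Dram1, a p53 target of the lysosome, was below 3 CPM in both B16 lines. Their differences were 1.40 (SE 0.287, adjusted p = 2.3e-04) and 0.91 (SE 0.172, adjusted p = 8.7e-05).

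Cdsn, a cell adhesion protein best known from the skin, also belonged to this kind. It went from 110.2 and 110.0 to 97.7 and 100.3 CPM in Melan-A, from 9.33 and 8.02 to 37.9 and 40.7 in B16F0, and from 8.58 and 8.93 to 84.1 and 81.7 in B16F10. The fall in Melan-A was slight and the libraries of all 3 lines were apart while both B16 lines rose steeply toward the level of Melan-A, and the difference was 2.86 (SE 0.0569, adjusted p = 2.0e-25). Genes of the actin cytoskeleton were among the 227 too and were picked out after their values were seen. Srf, the transcription factor that drives many actin genes, had log2 changes of -0.59, 0.49 and 0.16 in Melan-A, B16F0 and B16F10. Myh9, the heavy chain of non-muscle myosin, had -0.11, 0.80 and 0.49, and Flna, the actin crosslinker filamin A, -0.15, 0.40 and 0.074. The CArG box, the sequence that SRF recognizes, was in 10 of the 176 windows of this class (5.68%), in 5 of the 212 windows of the opposite class (2.36%) and in 1.6% of all windows.

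**Figure D2:**
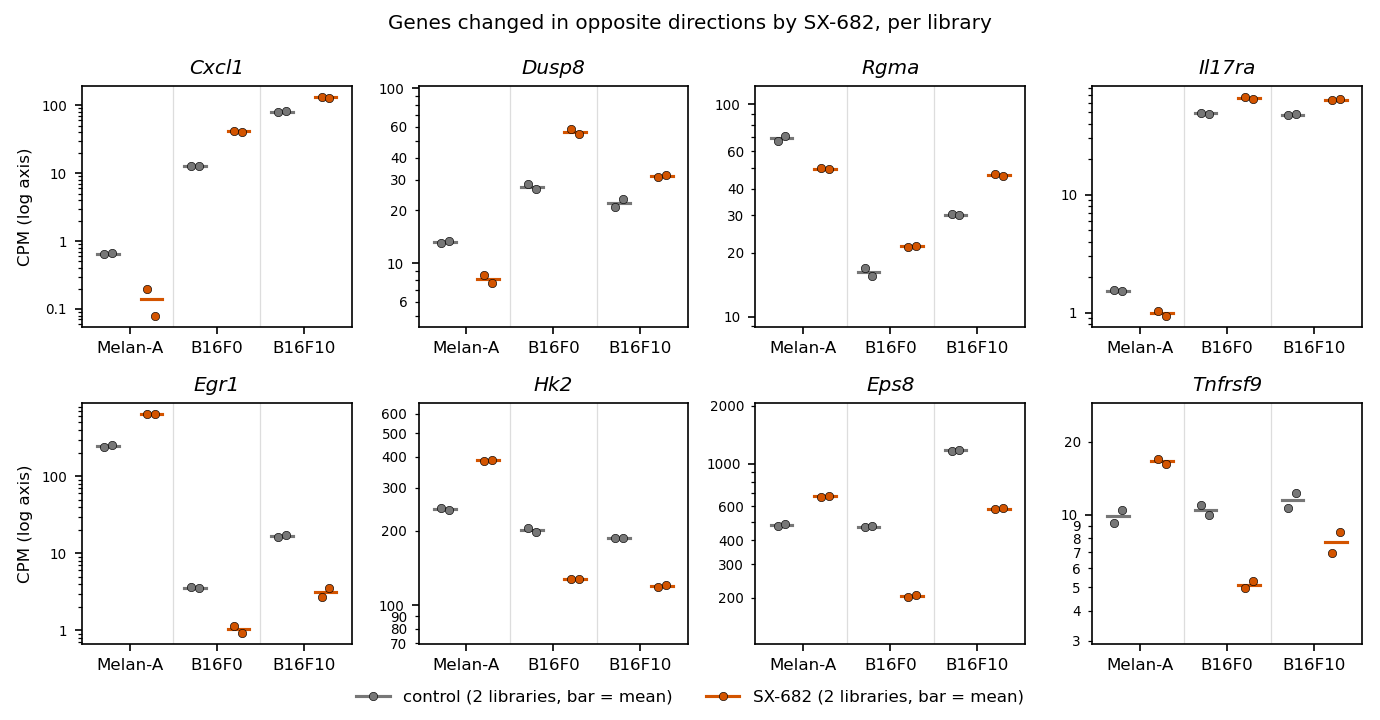
CPM (log axis) of 8 genes from the ranking of opposite movers in each of the 12 libraries, by line, with grey points for controls, orange points for SX-682 and a bar at the mean of 2 libraries. In the upper row the orange points lie below the grey ones in Melan-A and above them in B16F0 and B16F10. In the lower row they do the reverse. The ranking took only genes with this separation.

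Among the genes that rose in Melan-A and fell in the B16 lines, Egr1 ranked first in the same way. Egr1 (ENSMUSG00000038418.7) encodes a zinc finger transcription factor that is induced within minutes of a growth signal through the MAPK pathway. It was at 243 and 254 CPM in the Melan-A controls against 638 and 644 with SX-682, 3.62 and 3.58 in the B16F0 controls against 1.15 and 0.935 with SX-682, and 16.1 and 17.5 in the B16F10 controls against 2.69 and 3.54 with SX-682. The Melan-A libraries were far above the B16 libraries before treatment, and SX-682 widened this gap from both sides, with log2 changes of 1.36, -1.76 and -2.44 in Melan-A, B16F0 and B16F10 and a difference of -3.46 (SE 0.0847, adjusted p = 2.9e-23). Hilpda, which encodes a hypoxia-induced protein of lipid droplets, went from 22.2 and 22.5 to 39.1 and 41.0 CPM in Melan-A, from 18.9 and 18.3 to 8.17 and 8.06 in B16F0, and from 16.5 and 17.2 to 9.70 and 8.67 in B16F10. The controls lay between 16.5 and 22.5 CPM in all 3 lines and the SX-682 libraries of Melan-A stood above and those of B16 below them, with a difference of -1.88 (SE 0.0770, adjusted p = 6.1e-18). Eps8, an actin regulator downstream of growth factor receptors, went from 475 and 485 to 674 and 677 CPM in Melan-A, from 467 and 471 to 202 and 207 in B16F0, and from 1168 and 1182 to 582 and 585 in B16F10, with a difference of -1.60 (SE 0.0260, adjusted p = 1.6e-27).

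Rgs2, which shuts off signals of G protein-coupled receptors, was another member. It was at 5.46 and 5.59 CPM in the Melan-A controls against 8.60 and 8.35 with SX-682, 5.59 and 4.91 in the B16F0 controls against 2.76 and 2.35 with SX-682, and 9.59 and 8.68 in the B16F10 controls against 2.11 and 2.33 with SX-682, with log2 changes of 0.62, -1.03 and -2.04 and a difference of -2.15 (SE 0.146, adjusted p = 5.5e-13). Tnfrsf9, a receptor of the TNF family also known as 4-1BB, went from 9.25 and 10.4 to 17.0 and 16.3 CPM in Melan-A, from 10.9 and 10 to 4.98 and 5.30 in B16F0, and from 10.7 and 12.3 to 6.91 and 8.45 in B16F10. All 3 lines had similar control levels of Tnfrsf9, and the difference was -1.56 (SE 0.118, adjusted p = 5.6e-12). Spp1, the gene for the secreted protein osteopontin, which shares 18.8% of its exonic bases with another gene on the same strand, was high in Melan-A and near 5 CPM in B16, and went from 424 and 419.6 to 616 and 613 CPM in Melan-A, from 5.93 and 6.41 to 3.35 and 3.66 in B16F0, and from 5.44 and 4.60 to 2.72 and 3.15 in B16F10, a difference of -1.34 (SE 0.0691, adjusted p = 1.2e-15). Gpr35, an orphan receptor, had log2 changes of 0.72, -1.14 and -1.60 and was under 1 CPM in all Melan-A libraries. Rbm12b1 had 0 and 1 counts in the Melan-A controls and 5 and 2 with SX-682, so that its rise in Melan-A is not more than a few reads. Its difference, -3.70, lost its call without Melan-A control replicate 1 or SX-682 replicate 1, ranged from -5.69 to -2.90 over the libraries left out in turn (highest adjusted p = 0.176), and reads of its near copy Rbm12b2 may be split with it.

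The same direction was taken by genes of the secretory pathway and the lysosome that were picked out after their values were seen. P4hb, the protein disulfide isomerase of the ER, had log2 changes of 0.17, -0.30 and -0.44 in Melan-A, B16F0 and B16F10. Sec61a1, the channel through which new proteins enter the ER, had 0.11, -0.13 and -0.31, and Syvn1, a ubiquitin ligase of ER-associated degradation, 0.13, -0.65 and -0.39. Ctsb, the lysosomal protease cathepsin B, had 0.13, -0.12 and -0.072. Gpnmb, a glycoprotein of melanosomes, had 0.12, -0.15 and -0.32. Nr4a3, an immediate early nuclear receptor, was of this kind as well. It went from 7.2 and 5.99 to 32.4 and 31.8 CPM in Melan-A, from 94.0 and 91.6 to 84.0 and 83.2 in B16F0, and from 55.8 and 55.8 to 32.9 and 33.3 in B16F10. The rise in Melan-A was far larger than the falls in B16, and with SX-682 Melan-A and B16F10 reached like levels, with a difference of -2.74 (SE 0.0667, adjusted p = 2.9e-23). Hook1, a microtubule linker, had 1.87, -0.47 and -0.84 from control levels below 0.5 CPM in Melan-A and B16F10. Fbln1, a protein of elastic fibers, and Gpm6a, a neuronal membrane protein, were picked after their values were seen, as genes that Melan-A hardly expressed. Fbln1 went from 0.0579 and 0.0771 to 0.224 and 0.213 CPM in Melan-A, from 167 and 167 to 135 and 134 in B16F0, and from 131 and 126 to 117 and 119.8 in B16F10, a difference of -1.88 (SE 0.398, adjusted p = 3.3e-04) that is mostly the step in Melan-A at these low levels. Gpm6a was listed at 0 CPM in both Melan-A controls and 1 of the SX-682 libraries, which makes it the gene whose libraries overlapped in Melan-A, and its fold is not given.

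Immediate early genes and the feedback inhibitors of MAPK are separate lists of the same signal. The feedback list holds the phosphatases, Sprouty and Spred proteins and ETS factors that active ERK induces. Of its 13 tested genes, the response was lower in the B16 lines for 10, or 76.9%, against 17.1% of all genes, and higher for 1. The median difference was -0.85, and the median log2 changes were 0.24 for Melan-A, -0.41 for B16F0 and -0.65 for B16F10. Dusp6, the phosphatase of ERK, went from 262 and 267 to 435 and 431 CPM in Melan-A, from 86.2 and 83.6 to 62.9 and 62.9 in B16F0, and from 128 and 128 to 70.5 and 70.4 in B16F10. Its libraries did not overlap between conditions in any line, and the difference was -1.36 (SE 0.0325, adjusted p = 2.1e-23). Spry4, a Sprouty inhibitor, fell in both B16 lines, with log2 changes of -0.87 and -2.14 against 0.041 in Melan-A, where no change was called, and differed by -1.54 (SE 0.120, adjusted p = 1.2e-11). Dusp5 and Spry2 moved in opposite directions as Dusp6 did, with log2 changes of 0.24, -1.37 and -0.73 for Dusp5 and 0.46, -0.92 and -0.65 for Spry2. In B16F0 Dusp5 rests on 46 and 38 counts in the controls and 17 and 9 with SX-682, and in B16F10 on 71 and 57 against 40 and 34. The Melan-A controls held 23.3 and 24.7 CPM of it. Dusp5 also shares 22.1% of its exonic bases with an antisense gene. Phlda1 was the member with a higher response in B16, by 0.33. The promoter window of Dusp5 is shown for its CArG boxes, which occur in 1 of the 9 feedback genes and 1 of the 16 immediate early genes with a window:
Dusp5 (chr19:53529053-53529092, + strand): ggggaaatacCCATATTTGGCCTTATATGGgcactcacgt
Both boxes are in capitals, side by side.

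The immediate early list was less uniform. Of 21 tested genes, 12 had a lower and 6 a higher response in the B16 lines (85.7% called, against 35.8% of all genes). The median difference was -0.56. Besides Egr1, the genes Nr4a1, Ier2, Ier3 and Myc rose in Melan-A and fell in both B16 lines. Nr4a1 had log2 changes of 0.72, -0.19 and -1.06 in Melan-A, B16F0 and B16F10, and Myc, the growth-promoting transcription factor, 0.59, -0.11 and -0.48. Jun and Jund, which encode partners of FOS in the AP-1 complex, moved the other way, with -0.72, 0.86 and 0.35 for Jun and -0.21, 0.55 and 0.47 for Jund. Egr2 went in Melan-A from 10.6 and 12.3 to 27.8 and 30.8 CPM, while in B16F0 it had 5 and 4 counts without and 2 and 0 with SX-682, too few to give a fold change. Its difference of -3.20 went to -4.92 without B16F0 SX-682 replicate 1 and stayed called. Klf4, a stem cell factor that the study follows, rose in Melan-A and B16F10 and fell in B16F0. Of the network of MYC with its partners MAX and MXD, 5 of 12 genes had a lower and 2 a higher response in B16 (58.3% called, against 35.8% of all genes).

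Genes that cells raise when oxygen is short showed a lower response in the B16 lines in 16 of 21 tested members (76.2%, against 17.1% of all genes) and a higher one in 1, Ndrg1. Their median difference was -0.65, with median log2 changes of 0.73 for Melan-A, -0.27 for B16F0 and -0.033 for B16F10. Slc2a1, the glucose transporter GLUT1, went from 164 and 167 to 287 and 289 CPM in Melan-A, from 77.6 and 76.9 to 63.4 and 61.3 in B16F0, and from 101 and 102 to 86.5 and 89.3 in B16F10. The rise in Melan-A was larger than either fall, and the difference was -1.06 (SE 0.0353, adjusted p = 4.1e-20). Egln1, the oxygen sensor that marks HIF-1 for destruction, had 0.47, -0.63 and -0.28 in Melan-A, B16F0 and B16F10, and Higd1a, a mitochondrial protein, 0.41, -0.34 and -0.28. Kdm3a, a histone demethylase, had 0.21, -0.20 and -0.078. In contrast, Vegfa and Bnip3 went in different directions in the 2 B16 lines. Vegfa, the angiogenic growth factor, went from 80.8 and 80.5 to 139.9 and 141 CPM in Melan-A, from 72.8 and 67.1 to 54.0 and 49 in B16F0, and from 30.3 and 31.2 to 48.2 and 45.8 in B16F10, so it rose in Melan-A and B16F10 and fell in B16F0, and the difference was -0.71 (SE 0.0510, adjusted p = 1.9e-12). B16F10 alone differed from Melan-A by -0.19 (adjusted p = 0.0182) and B16F0 alone by -1.24. Bnip3, a mitophagy receptor that shares 22.3% of its exonic bases with an antisense gene, had 1.02, -0.32 and 0.30. Ankrd37 had the lowest difference of the list, -1.80 (SE 0.226, adjusted p = 1.5e-07), and shares 22.7% of its exonic bases with Lrp2bp on the opposite strand.

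The response of glycolysis genes was lower in the B16 lines for 16 of 21 genes (76.2%, against 17.1% of all genes). It was higher for 2, Pgd and Taldo1, which are enzymes of the pentose phosphate branch. The median difference was -0.34, with median log2 changes of 0.32 for Melan-A, -0.045 for B16F0 and 0.037 for B16F10. The 7 opposite movers were Hk2, Tpi1, Pgk1, Pgam1, Eno1, Pkm and Ldha, which span the pathway from the first step to lactate. Hk2, the hexokinase that many tumors express, was at 248 and 244 CPM in the Melan-A controls against 384 and 389 with SX-682, 205 and 198 in the B16F0 controls against 128 and 128 with SX-682, and 187 and 188 in the B16F10 controls against 118 and 121 with SX-682. Its change was of nearly equal size in the 3 lines, 0.65, -0.66 and -0.65, and of opposite sign, with a difference of -1.30 (SE 0.0314, adjusted p = 2.3e-23). Ldha, which makes lactate, had 0.29, -0.38 and -0.35, and Pgam1 0.21, -0.36 and -0.43. Pgk1 had 0.32, -0.22 and -0.12, Tpi1 0.21, -0.29 and -0.17, Eno1 0.17, -0.18 and -0.069 and Pkm 0.12, -0.15 and -0.15. These changes were smaller than 0.5, and the libraries of each line were apart. Aldoa and Eno2 rose in all 3 lines, with smaller changes in the B16 mean, so the list did not move as a block.

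The core of the hypoxia response element, the letters ACGTG on either strand, was in 12 of the 16 windows of hypoxia targets (75%) and in 11 of the 21 windows of glycolytic genes (52.4%), against 27.9% of all windows. In the class that rose in Melan-A and fell in B16 it was in 102 of 212 windows (48.1%), and in the reverse class in 46 of 176 (26.1%). Promoter stretches are shown only for opposite movers of both lists that hold the core, with its letters in capitals. The opposite movers Tpi1, Eno1 and Kdm3a do not hold it. Pkm and Higd1a hold it, and their stretches are not shown. An E-box of the letters CACGTG contains the core, as the Ldha stretch shows.
Hk2 (chr6:82774490-82774692, - strand): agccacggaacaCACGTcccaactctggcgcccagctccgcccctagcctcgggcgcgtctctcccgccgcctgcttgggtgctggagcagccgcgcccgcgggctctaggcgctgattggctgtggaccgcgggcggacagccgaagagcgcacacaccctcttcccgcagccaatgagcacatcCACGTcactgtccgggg
Ldha (chr7:46845647-46845786, + strand): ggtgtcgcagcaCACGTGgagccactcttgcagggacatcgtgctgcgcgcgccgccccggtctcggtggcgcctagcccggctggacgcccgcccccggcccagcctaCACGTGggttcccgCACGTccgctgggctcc
Pgk1 (chrX:106186938-106186985, + strand): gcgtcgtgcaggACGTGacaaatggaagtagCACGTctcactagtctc
Pgam1 (chr19:41911745-41911773, + strand): cgctccttgcttACGTGcgctccgtgact
Slc2a1 (chr4:119108697-119108725, + strand): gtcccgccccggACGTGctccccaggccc
Egln1 (chr8:124949306-124949334, - strand): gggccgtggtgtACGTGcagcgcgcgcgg

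Chaperones and sensors of the ER had a lower response in the B16 lines in 18 of 21 genes (85.7%, against 17.1% of all genes) and a higher one in 2, Atf6 and Sel1l. The list had a median difference of -0.38, and the median log2 changes were -0.0083 for Melan-A, -0.37 for B16F0 and -0.34 for B16F10. The list contained 4 opposite movers. Dnajb9, a cochaperone of the ER, went from 30.0 and 29.2 to 54.2 and 51.7 CPM in Melan-A, from 37.4 and 36.0 to 25.3 and 25.8 in B16F0, and from 32.9 and 33.0 to 28.0 and 26.5 in B16F10. The controls of the 3 lines were close together and the SX-682 libraries of Melan-A stood above all others, with a difference of -1.24 (SE 0.0588, adjusted p = 1.9e-16). Xbp1, the transcription factor of the unfolded protein response, had log2 changes of 0.52, -0.67 and -0.25 in Melan-A, B16F0 and B16F10 and differed by -0.99 (SE 0.0430, adjusted p = 2.4e-17). Eif2ak3, which encodes the ER stress sensor PERK, had 0.39, -0.58 and -0.18. Hspa5, the main ER chaperone BiP, had 0.22, -0.39 and -0.31, a difference of -0.58 (adjusted p = 1.6e-18). Calr, Pdia3, Dnajc3 and Manf fell in every line and fell more in the B16 lines. Herpud1 rose in every line, by 1.32, 0.55 and 1.31, and less in B16F0.

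The ER stress response element, CCAAT and CCACG with 9 letters between them, is the sequence through which ATF6 and XBP1 are known to act. It was in 7 of the 18 windows of this list (38.9%), against 23 of 12315 (0.187%). It was in 2 of the 212 windows of genes that rose in Melan-A and fell in B16, and in 0 of the 176 of the reverse class. Matches of 6 of the 7 genes are shown with the whole element in capitals, and those on the other strand read CGTGG and ATTGG. Canx held the element as well, and its response did not pass the test, with a difference of -0.017.
Hspa5 (chr2:34772015-34772053, + strand): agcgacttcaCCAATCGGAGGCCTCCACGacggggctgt
Creld2 (chr15:88819510-88819548, + strand): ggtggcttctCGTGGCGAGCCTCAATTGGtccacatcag
Dnajc3 (chr14:118937817-118937855, + strand): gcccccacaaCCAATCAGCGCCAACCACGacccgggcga
Pdia6 (chr12:17266481-17266519, + strand): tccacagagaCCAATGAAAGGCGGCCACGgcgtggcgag
Calr (chr8:84847065-84847103, - strand): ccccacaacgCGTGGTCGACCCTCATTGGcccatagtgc
Canx (chr11:50325790-50325828, - strand): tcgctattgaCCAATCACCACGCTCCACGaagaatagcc

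Cholesterol synthesis and uptake had 0 genes with a higher and 19 of 22 with a lower response in the B16 lines (86.4%, against 17.1% of all genes). Their median difference was -0.62, with median log2 changes of -0.15 for Melan-A, -0.49 for B16F0 and -0.82 for B16F10. Insig1, which holds SREBP in the ER when sterols are plentiful, went from 52.1 and 49.3 to 53.1 and 53 CPM in Melan-A, from 213 and 210.0 to 159 and 153 in B16F0, and from 130.3 and 130.5 to 37.7 and 41.9 in B16F10. It was lower in both B16 lines, most of all in B16F10, and not called in Melan-A, and the difference was -1.14 (SE 0.0472, adjusted p = 7.8e-18). Msmo1, a sterol oxidase, fell in all 3 lines, with -0.30, -1.08 and -1.63. Cyp51, Mvd and Nsdhl moved in opposite directions, with 0.17, -0.59 and -0.77 for Cyp51 and 0.24, -0.39 and -0.84 for Mvd. Fdps had a difference of -1.08, but shares 26.7% of its exonic bases with another gene on the same strand and is uncertain. In the fatty acid list 8 of 17 genes had a lower and 2 a higher response (58.8% called, against 35.8% of all genes). Fasn, the fatty acid synthase, went from 656 and 678 to 718 and 726 CPM in Melan-A, from 796 and 786 to 514 and 501 in B16F0, and from 598 and 599.6 to 354 and 356 in B16F10, which is a small rise in Melan-A and a fall in both B16 lines, and differed by -0.81 (SE 0.0266, adjusted p = 2.9e-20). Acsl3 moved likewise, with 0.26, -0.30 and -0.29. The sterol regulatory element was in 1 of 14 windows of the cholesterol list (7.14%), against 1.48% of all windows. With 1 match it cannot be said whether the letters searched mark this list. The element was in 3.77% of windows of genes that rose in Melan-A and fell in B16, and in 0.568% of the reverse class.

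Genes of the ATF4 and CHOP branch of the stress response went the other way. Of 19 tested members, 14 had a higher (73.7%, against 18.7% of all genes) and 1, Cdkn1a, a lower response in the B16 lines. The median difference was 0.67, with median log2 changes of 0.92 for Melan-A, 1.42 for B16F0 and 1.49 for B16F10. None of them was an opposite mover, and most rose in all 3 lines. Trib3, a pseudokinase that dampens ATF4 and CHOP, went from 107 and 112 to 327 and 321 CPM in Melan-A, from 52.6 and 51.8 to 322 and 319 in B16F0, and from 11.1 and 9.93 to 325 and 326 in B16F10. The SX-682 libraries of all 3 lines lay between 319 and 327 CPM while the controls did not overlap between lines, and the difference was 2.23 (SE 0.0392, adjusted p = 1.0e-26). Nupr1, a stress-induced nuclear protein, went from 7.02 and 7.14 to 20.3 and 19.0 CPM in Melan-A, from 7.80 and 8.31 to 36.4 and 38.0 in B16F0, and from 0.744 and 0.751 to 26.9 and 31.4 in B16F10, again with SX-682 levels closer together than the controls, and differed by 2.27 (SE 0.115, adjusted p = 7.6e-16). Chac1, which degrades glutathione, went from 15.8 and 15.9 to 45.7 and 47.1 CPM in Melan-A, from 17.8 and 18.0 to 61.7 and 60.9 in B16F0, and from 4.10 and 4.60 to 75.6 and 74.9 in B16F10, with a difference of 1.39 (SE 0.0642, adjusted p = 9.3e-17).

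Vldlr, a lipoprotein receptor and ATF4 target, rose in both B16 lines and was not called in Melan-A. It went from 25.7 and 25.5 to 23.7 and 24.7 CPM in Melan-A, from 0.988 and 0.907 to 2.72 and 2.33 in B16F0, and from 11.6 and 12.1 to 50.2 and 52.0 in B16F10. The Melan-A libraries moved slightly down, and the difference was 1.84 (SE 0.0990, adjusted p = 3.2e-15). Atf4 itself had log2 changes of 0.73, 1.02 and 1.45 in Melan-A, B16F0 and B16F10, and Ddit3, which encodes CHOP, 2.14, 2.05 and 3.5. Sesn2, Gdf15, Stc2 and Eif4ebp1 did not pass the test of the difference. Fgf21, a stress hormone, passed it (adjusted p = 0.0271), but was listed at 0 CPM in both B16F10 controls and below 0.75 CPM in the others, so that its fold is not given. The rises in B16F10 exceeded those in B16F0 for Trib3, Nupr1 and Chac1, each in its own test (adjusted p = 2.1e-23, 6.4e-15 and 6.4e-19).

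The C/EBP-ATF site, TGATG followed by any letter and AA, through which ATF4 is known to act with C/EBP partners, was in 7 of 18 windows of the ATF4 list (38.9%), in 5 of 12 windows of aminoacyl-tRNA synthetases (41.7%) and in 3 of 13 of the amino acid synthesis list, against 2.83% of all windows. It was in 6 of 176 windows (3.41%) of genes that fell in Melan-A and rose in B16. Matches from genes with a higher B16 response are shown with the site in capitals, which on the other strand reads TT, any letter and CATCA. Trib3 also holds the site, and its stretch is not shown here.
Chac1 (chr2:119351039-119351066, + strand): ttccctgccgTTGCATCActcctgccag
Nupr1 (chr7:126625563-126625590, - strand): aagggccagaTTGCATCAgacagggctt
Vldlr (chr19:27216810-27216837, + strand): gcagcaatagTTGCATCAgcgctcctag
Atf3 (chr1:191183426-191183453, - strand): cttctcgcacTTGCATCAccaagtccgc
Asns (chr6:7693215-7693242, - strand): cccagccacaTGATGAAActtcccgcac
Pycr1 (chr11:120643834-120643861, - strand): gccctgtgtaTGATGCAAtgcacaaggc

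**Figure D3:**
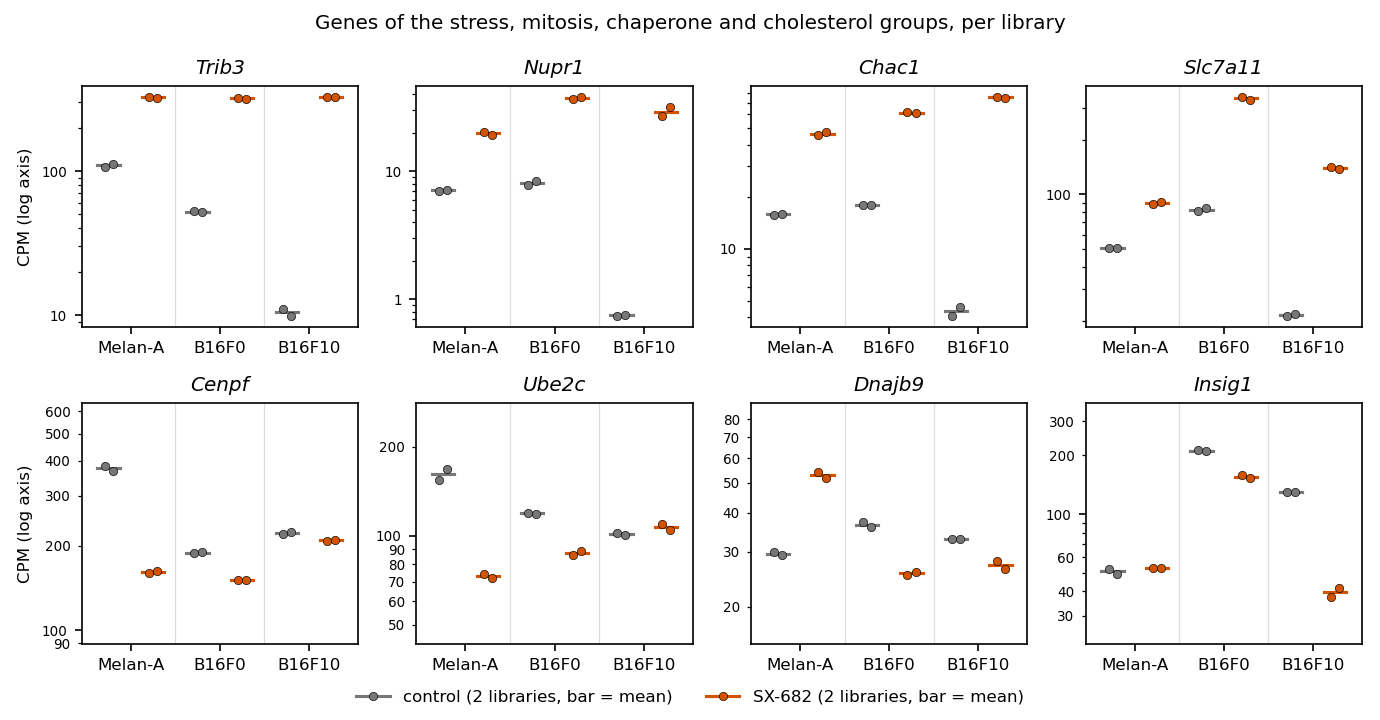
CPM (log axis) in each of the 12 libraries for 8 genes of the stress, amino acid, mitosis, chaperone and cholesterol lists, by line, with grey points for controls, orange points for SX-682 and a bar at the mean of 2 libraries. The orange points of Trib3 lie at 319 to 327 CPM in all 3 lines while its grey points step down from Melan-A to B16F10.

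Supply of amino acids followed the ATF4 genes in part. In the synthesis list 11 of 15 genes had a higher and 3 a lower response in the B16 lines (93.3% called, against 35.8% of all genes). The median difference was 0.46, with median log2 changes of 0.54 for Melan-A, 0.78 for B16F0 and 1.48 for B16F10. Mthfd2, a mitochondrial folate enzyme, rose by 0.63, 1.16 and 1.85 in Melan-A, B16F0 and B16F10, and Pycr1, which makes proline, by 1.56, 1.71 and 3.15. Cth, the enzyme of cysteine synthesis, differed by 1.68 (SE 0.399, adjusted p = 0.00115), and was at 0.174 and 0.352 CPM in the Melan-A controls. The difference was 1.07 without Melan-A control replicate 2, where it lost its call (adjusted p = 0.141), and 2.43 without Melan-A SX-682 replicate 1. Cytosolic aminoacyl-tRNA synthetases had 13 of 20 genes with a higher and 3 with a lower response (80% called, against 35.8% of all genes), at a median difference of 0.17. Aars was the largest of them, with 0.40, 0.75 and 0.97 and a difference of 0.46 (SE 0.0270, adjusted p = 2.5e-14). Amino acid transporters were split, with 6 higher and 4 lower of 12 (83.3% called, against 35.8% of all genes). Slc7a11, the cystine importer, went from 50.4 and 50.4 to 88.8 and 91.3 CPM in Melan-A, from 81.3 and 83.7 to 346 and 334 in B16F0, and from 21.4 and 22.0 to 141 and 139 in B16F10, a difference of 1.53 (SE 0.0400, adjusted p = 1.7e-22). Slc38a2, a transporter of neutral amino acids, fell in every line, with -0.46, -1.28 and -0.75, and fell more in B16, with a difference of -0.55 (SE 0.0322, adjusted p = 2.0e-14).

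Antioxidant genes under NRF2 had 9 of 16 members with a higher and 2 with a lower response in B16 (68.8% called, against 35.8% of all genes). Gclm, a subunit of the enzyme that starts glutathione synthesis, was an opposite mover, from 126 and 122 to 104 and 98.6 CPM in Melan-A, from 76.4 and 72.3 to 141 and 130.2 in B16F0, and from 54.8 and 56.5 to 104 and 103 in B16F10, with a difference of 1.17 (SE 0.0455, adjusted p = 1.6e-18). Nqo1, a quinone reductase, moved the same way from 0.649 and 0.451 CPM in the Melan-A controls, with log2 changes of -2.14, 1.05 and 1.54. Hmox1, the heme oxygenase, rose in every line by a similar amount, with 1.13, 1.04 and 1.21 and a difference of -0.0016 (adjusted p = 1). The factor itself, Nfe2l2, rose in every line and less in B16, with 0.59, 0.36 and 0.13. In iron handling 6 of 14 genes were higher and 4 lower (71.4% called, against 35.8% of all genes). Slc40a1, the iron exporter ferroportin, rose in both B16 lines (log2 changes 0.078, 0.93 and 1.92 with Melan-A first), and Tfrc, the receptor for iron uptake, fell in both (-0.045, -1.18 and -0.85). Neither passed its test in Melan-A, and the differences were 1.34 (SE 0.104, adjusted p = 1.1e-11) and -0.97 (SE 0.0304, adjusted p = 1.1e-20). Cytosolic heat shock genes had 0 of 15 higher and 7 lower (46.7% called, against 35.8% of all genes). Their median log2 changes were -0.0275 for Melan-A, -0.167 for B16F0 and -0.0047 for B16F10, so at the median only B16F0 lay below Melan-A. Over the alternatives with no library left out, and each B16 line alone included, 0 to 3 were higher and 7 to 9 lower. Of the 7 lower genes, Hspa8, a constitutive chaperone, had the largest difference, with log2 changes of -0.20, -0.72 and -0.89.

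All 29 tested genes of the mitosis list had a higher response in the B16 lines, against 18.7% of all genes. Their differences ran from 0.11 to 1.02, with a median of 0.59. The median log2 changes were -0.75 for Melan-A, -0.35 for B16F0 and -0.064 for B16F10, so the list was lower in all 3 lines at the median, most in Melan-A and least in B16F10. Cenpf, a kinetochore protein, went from 383 and 369 to 159 and 162 CPM in Melan-A, from 187 and 189 to 150.3 and 151 in B16F0, and from 220.1 and 224 to 208 and 210.0 in B16F10, a fall in every line that was steepest in Melan-A, with a difference of 1.02 (SE 0.0316, adjusted p = 7.9e-21). Ube2c, the ubiquitin carrier of the anaphase-promoting complex, went from 154 and 168 to 74.5 and 72.1 CPM in Melan-A, from 119.7 and 119 to 85.9 and 88.9 in B16F0, and from 103 and 101 to 109.8 and 105 in B16F10 and differed by 0.95 (SE 0.0443, adjusted p = 1.1e-16). It shares 22.8% of its exonic bases with Tnnc2 on the opposite strand, as Kif20a does to 29.3% with Cdc23. Mki67, the proliferation marker, had a log2 change of -0.75 in Melan-A and of 0.002 and 0.0046 in B16F0 and B16F10. Ccnb2, Cdc20, Prc1, Tpx2, Nusap1 and Nek2 fell in Melan-A and B16F0 and rose in B16F10. In bulk RNA a smaller share of cells in mitosis and less of these RNAs per cell cannot be told apart.

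The cell cycle gene homology region (CHR), TTTGAA on either strand, through which mitotic genes are known to be silenced outside G2 and M phase, was in 18 of the 25 windows of the mitosis list (72%) and in 14.9% of all windows. Of the opposite movers it was in 34 of 176 windows (19.3%) of genes that fell in Melan-A and in 20 of 212 (9.43%) of those that rose there. Matches are shown with the element in capitals:
Ube2c (chr2:164769890-164769915, + strand): agggttgcaaTTCAAAcgcgggcggc
Prc1 (chr7:80294436-80294461, + strand): tctggctcggTTTGAAttccgcgggg
Cdc20 (chr4:118437346-118437371, - strand): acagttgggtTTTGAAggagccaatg
Ccnb2 (chr9:70421706-70421731, - strand): gggactagaaTTTGAAaataagactg

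DNA replication genes did not follow mitosis. Of 36 tested members, 5 had a higher and 19 a lower response in the B16 lines (66.7% called, against 35.8% of all genes). The median difference was -0.14, with median log2 changes of -0.48 for Melan-A, -0.42 for B16F0 and -0.61 for B16F10. Orc1, of the origin recognition complex, fell in every line, with -0.80, -1.43 and -1.35, and Ccne2, the cyclin of S phase entry, with -1.72, -1.96 and -2.26. The lower response came mostly from B16F10, where 22 of the genes were lower and 2 higher than in Melan-A, against 10 lower and 8 higher in B16F0. Among inhibitors of cyclin-dependent kinases and D cyclins 7 of 15 were higher and 3 lower (66.7% called, against 35.8% of all genes). Cdkn1b, the inhibitor p27, rose more in B16 (0.36, 0.99 and 0.91), and Cdkn2c, the inhibitor p18, changed by -1.24 in Melan-A against -0.067 in B16F0 and -0.20 in B16F10.

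Among p53 targets 14 of 21 had a higher (66.7%, against 18.7% of all genes) and 1 a lower response. The median difference was 0.22, with median log2 changes of 0.075 for Melan-A, 0.44 for B16F0 and 0.072 for B16F10. The count of higher genes was 13 for B16F0 alone and 8 for B16F10 alone. Gadd45a, a growth arrest gene that ATF4 also raises, rose by 1.21, 2.38 and 2.84 in Melan-A, B16F0 and B16F10, and Bbc3, the death gene PUMA, by 1.41, 2.12 and 2.08. Plk2, a stress kinase, rose mainly in B16F0, with 0.16, 1.74 and 0.50. In the BCL2 family 5 of 14 were higher and 2 lower (50% called, against 35.8% of all genes). Hrk, a death-promoting member, rose in both B16 lines (1.67 and 1.79) from control levels below 0.25 CPM, and Bok lost its call in 9 of 12 cases with 1 library left out (highest adjusted p = 0.178).

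Pigment genes had a lower response in the B16 lines in 9 of 18 members (50%, against 17.1% of all genes) and a higher one in 1. The median difference was -0.17, with median log2 changes of -0.20 for Melan-A, -0.45 for B16F0 and -0.70 for B16F10. Tyrp1, an enzyme of melanin synthesis, went from 105 and 108 to 143 and 143 CPM in Melan-A, from 6419 and 6458 to 5892 and 5824 in B16F0, and from 8371 and 8349.8 to 4558 and 4627 in B16F10, a rise in Melan-A from a level far below that of B16 and a fall in both B16 lines, with a difference of -0.92 (SE 0.0203, adjusted p = 3.0e-24). Mlph, which ties melanosomes to myosin, was at 1.11 and 0.826 CPM in the Melan-A controls against 1.16 and 1.61 with SX-682, 381 and 393 in the B16F0 controls against 244 and 240.2 with SX-682, and 594 and 594 in the B16F10 controls against 414 and 412 with SX-682. Its rise in Melan-A is from near 1 CPM, and the difference was -1.13 (SE 0.148, adjusted p = 3.4e-07). Rab27a, the partner of Mlph on melanosomes, had 0.12, -0.43 and -0.66. Mitf, the master regulator of melanocytes, fell in all 3 lines. It went from 103 and 101 to 78.0 and 80.5 CPM in Melan-A, from 371 and 362 to 86.8 and 82.4 in B16F0, and from 420.3 and 420.3 to 186 and 194 in B16F10. The Melan-A libraries dropped the least of the 3 lines, and the difference was -1.26 (SE 0.0367, adjusted p = 2.0e-21). Sox10, which switches Mitf on, rose slightly in Melan-A and fell in both B16 lines, with 0.16, -0.33 and -0.29. Tyr fell in every line, with -1.55, -0.83 and -1.92, and its difference of 0.17 was not called (adjusted p = 0.7). Slc24a5 was the member with the higher response, 1.03 (SE 0.280, adjusted p = 0.00408), which lost its call without 1 library. With single libraries left out the difference ranged from 0.93 to 1.12. In Melan-A it rests on 46 and 53 counts in the controls and 10 and 12 with SX-682. Slc24a5 shares 39.5% of its exonic bases with Myef2. Among lineage factors and receptors 6 of 14 were higher and 3 lower (64.3% called, against 35.8% of all genes), with Snai2, a neural crest factor, at 0.40, 0.98 and 1.14. Lysosomal genes, which MITF and TFEB are known to drive, were lower in B16 for 18 of 26 (69.2%, against 17.1% of all genes) and higher for 0. Their median difference was small, at -0.14. The median log2 changes were 0.232 for Melan-A, 0.195 for B16F0 and 0.0346 for B16F10, so at the median B16F0 lay near Melan-A. Over the alternatives with no library left out, and each B16 line alone included, 14 to 18 were lower and 0 to 5 higher. Autophagy genes were lower for 7 and higher for 3 of 21 (47.6% called, against 35.8% of all genes). Sqstm1, an autophagy receptor, had a higher response, with 0.68, 1.53 and 1.38. The E-box CACGTG was in 9 of 17 windows of lysosomal genes (52.9%), in 11.1% of all windows, and in 17.9% and 10.2% of the windows of genes that rose and fell in Melan-A against the B16 lines.

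Genes of the matrix outside the cell had a higher response in the B16 lines in 14 of 26 members (53.8%, against 18.7% of all genes) and a lower one in 1, Nid1. Matrix genes had a median difference of 0.48, with median log2 changes of -0.26 for Melan-A, 0.16 for B16F0 and 0.052 for B16F10. Col4a1, a chain of basement membrane collagen, went from 3.21 and 3.54 to 1.5 and 1.23 CPM in Melan-A, from 201 and 211 to 226 and 227 in B16F0, and from 523 and 522 to 666 and 675 in B16F10. It was scarce in Melan-A and fell there, was abundant in B16 and rose there, and differed by 1.56 (SE 0.102, adjusted p = 2.8e-13). Its partner Col4a2 had -0.92, 0.18 and 0.36, and Lamb2, a laminin chain, -0.10, 0.13 and 0.40, both opposite movers. Lamb1 fell in Melan-A, with a log2 change of -1.18, and rose in B16F0, with 0.14. Fn1, fibronectin, rose in every line and more in B16, with 0.17, 0.71 and 0.83. Col3a1 had 1 and 0 counts in untreated B16F10 and 4 and 8 with SX-682, and its difference of 2.15 lost its call in 2 cases with 1 library left out (1.69 without B16F10 control replicate 2 to 3.37 without B16F10 control replicate 1, highest adjusted p = 0.0599). The fibroblast markers, of which Col1a1 and Col3a1 are in the matrix list too, gave 2 of 5 higher (40%, against 18.7% of all genes) and 0 lower. Their summed level was between 113 and 115 CPM in the Melan-A controls and between 93.3 and 94.5 with SX-682. In B16F10 it was between 3.93 and 3.94 CPM without and between 5.18 and 5.88 with SX-682, and the conditions overlapped in B16F0. Their part in the matrix result was not tested.

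Integrins and cadherins had 9 of 20 higher (45%, against 18.7% of all genes) and 0 lower. Itgb3 and Itgb5, which pair with the alpha V chain, fell in Melan-A and rose in both B16 lines, with -0.38, 0.23 and 0.088 and -0.082, 0.31 and 0.36. TGF-beta pathway genes had 10 of 17 higher (58.8%, against 18.7% of all genes) and 1 lower, with a median of 0.23. Bambi, a decoy receptor, moved in opposite directions (-0.47, 0.72 and 0.26). Of the targets of YAP and TEAD 6 of 12 were higher (50%, against 18.7% of all genes) and 0 lower. Ccn1, a matrix-associated signal protein, went from 449.7 and 450.2 to 410.5 and 410.4 CPM in Melan-A, from 139 and 138 to 925 and 921 in B16F0, and from 146 and 144 to 256 and 262 in B16F10. The fall in Melan-A was small, the rise in B16F0 was by far the largest, and the difference was 1.92 (SE 0.0276, adjusted p = 1.5e-28). Ccn2, its relative, fell in Melan-A and B16F10 and rose in B16F0, from 40.6 and 37.3 to 12.8 and 12.3 CPM in Melan-A, from 4.81 and 4.73 to 8.92 and 9.43 in B16F0, and from 20.3 and 19.2 to 11.1 and 11.4 in B16F10, so the melanoma lines went apart. It shares 23.2% of its exonic bases with an antisense gene. Tead1 had -0.57, 0.47 and 0.10.

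The Notch pathway had 6 of 12 members higher (50%, against 18.7% of all genes) and 1 lower, and 3 of them were opposite movers. Notch1, a receptor of signals from neighboring cells, went from 3.07 and 2.95 to 1.82 and 1.86 CPM in Melan-A, from 36.7 and 37.8 to 47.4 and 46.2 in B16F0, and from 44.9 and 42.0 to 49.2 and 52.8 in B16F10, with a difference of 0.99 (SE 0.118, adjusted p = 6.2e-08). Melan-A held far less Notch1 than B16 before treatment and SX-682 widened the gap. Notch2 had -0.14, 0.68 and 0.34 and the ligand Jag1 -0.19, 1.08 and 0.45. In the Wnt list 3 of 11 were higher and 1 lower (36.4% called, against 35.8% of all genes), and Tcf7l2, a partner of beta-catenin, was an opposite mover (-0.48, 0.40 and 0.30). Matrix proteases and their inhibitors had 3 of 18 higher and 8 lower (61.1% called, against 35.8% of all genes). Adamts1, a matrix protease, had 0.54, -0.32 and -0.50, and Timp1, an inhibitor of such proteases, 0.43, -0.44 and -0.37. EMT factors had 4 of 12 higher and 1 lower (41.7% called, against 35.8% of all genes). Growth factor receptors were near the background with 4 of 17 higher and 2 lower (35.3% called, against 35.8% of all genes). Met, the receptor of hepatocyte growth factor, fell in both B16 lines and was not called in Melan-A, from 246 and 254 to 245 and 246 CPM in Melan-A, from 431 and 436 to 199 and 203 in B16F0, and from 417 and 422 to 214 and 221 in B16F10, a difference of -1.0 (SE 0.0305, adjusted p = 5.4e-21). Ngfr, a neural crest receptor, rose in Melan-A from 5 and 4 to 15 and 19 counts, fell in B16F0 and rose in B16F10 (-0.47 and 0.26). S100 proteins had 6 of 8 higher (75%, against 18.7% of all genes) and 0 lower. Their median log2 changes were -0.68 for Melan-A, -0.30 for B16F0 and -0.21 for B16F10. S100b, a melanoma marker, had -0.86, -0.54 and -0.15. S100a6 had a difference of 0.74 that ranged from 0.47 without Melan-A SX-682 replicate 2 to 1.04 without Melan-A SX-682 replicate 1 and lost its call in 2 cases (highest adjusted p = 0.166).

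**Figure D4:**
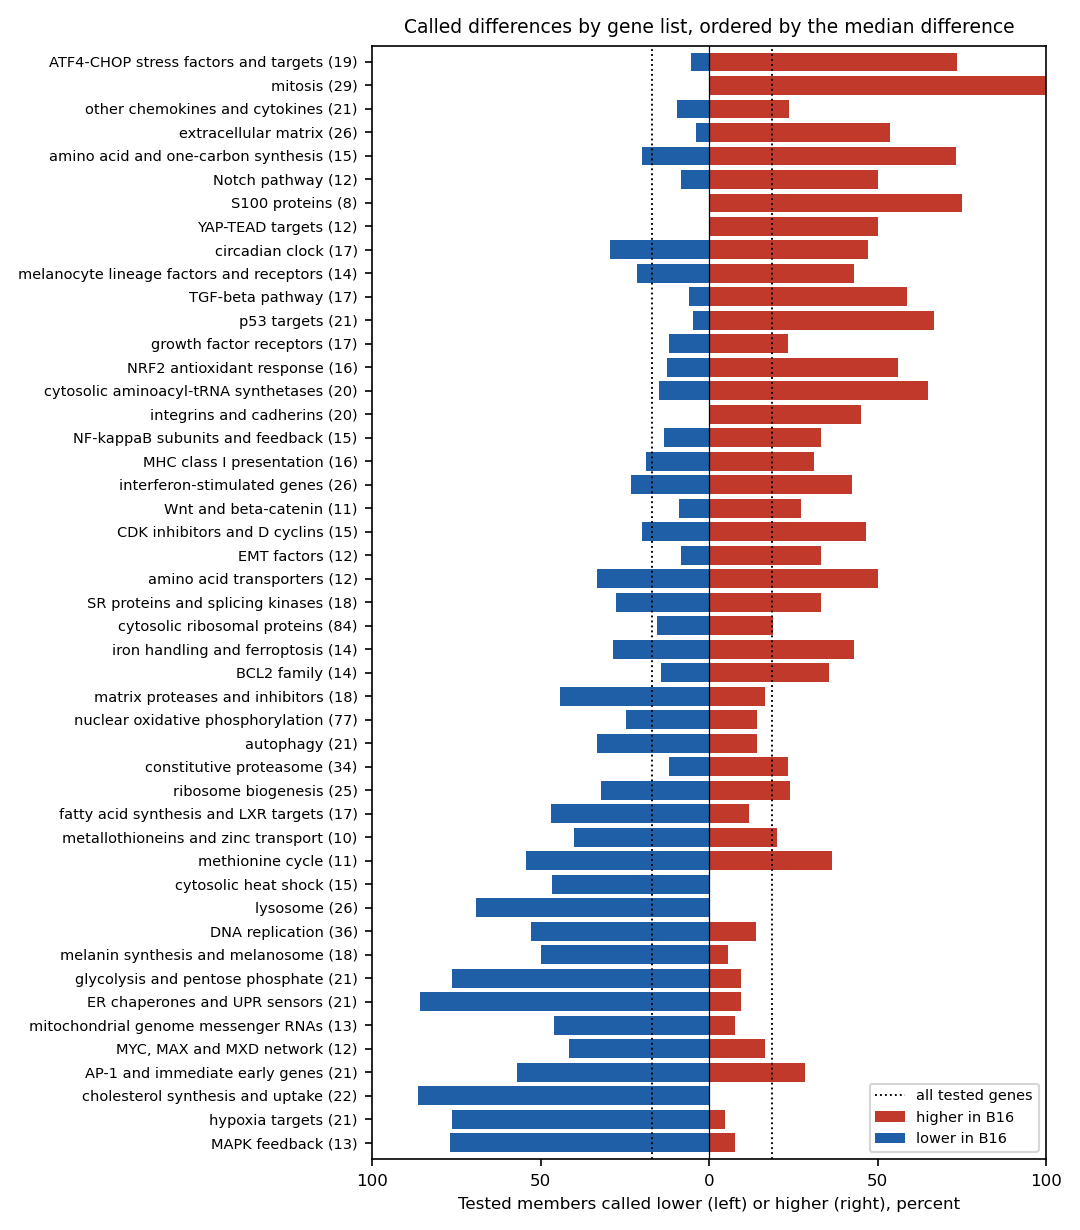
Percent of the tested genes of each list with a higher (right) and a lower (left) response to SX-682 in the B16 lines than in Melan-A, for 47 lists, with the background of all genes tested, 18.7% higher and 17.1% lower, as dotted lines and the number of genes tested in brackets. Mitosis reaches 100% on the higher side, and ER chaperones and cholesterol synthesis lie near 86% on the lower side.

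Chemokines were read out with the receptors that SX-682 blocks. Of 6 tested genes for the ligands and receptors of this axis, 3 were higher (50%, against 18.7% of all genes) and 0 lower. The 3 were Cxcl1, above, and Cxcl5 and Cxcr1. Over the alternatives with no library left out, and each B16 line alone included, 1 to 4 were higher. Cxcr1 was at 0.243 and 0.143 CPM in the Melan-A controls and at 0 in all B16 controls, and Cxcl5 was at most 1.13 CPM in any control, so that both calls rest on few counts. Cxcl2, a close relative of Cxcl1, had log2 changes of -0.37, 0.72 and 0.31 and a difference of 0.88 that did not pass (adjusted p = 0.0517). Of other chemokines and cytokines 5 of 21 were higher and 2 lower, so that 33.3% were called against 35.8% of all genes. Csf1, the growth factor of macrophages, fell in Melan-A and rose in both B16 lines (-0.17, 1.30 and 0.57), with a difference of 1.10 (SE 0.0405, adjusted p = 4.5e-19). NF-kappaB subunits and feedback genes had 5 of 15 higher and 2 lower (46.7% called, against 35.8% of all genes). Nfkbia, the inhibitor that NF-kappaB itself induces, rose in every line and most in B16F0, with 0.19, 1.24 and 0.69, and Nfkb1, a subunit, had -0.43, 0.10 and -0.21. Rel had a difference of 0.32 that lost its call in 4 cases with 1 library left out (highest adjusted p = 0.0892). The NF-kappaB site was in 7 of the 12 windows of this list (58.3%).

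Interferon-stimulated genes were mixed. The response was higher in B16 for 11 and lower for 6 of 26 (65.4% called, against 35.8% of all genes), with 14 higher in B16F10 alone and 3 in B16F0 alone. Ifit3, an antiviral effector, rose in every line and less in B16 (1.38, 0.56 and 0.86). Mx2 had a difference of 0.72, with 0.52 as the lowest value over the libraries left out and a lost call without 1 of them (adjusted p = 0.0539). In antigen presentation by MHC class I, 5 of 16 were higher and 3 lower (50% called, against 35.8% of all genes). Cd274, the checkpoint ligand PD-L1, rose in every line and more in B16, with 0.99, 1.66 and 1.91 and a difference of 0.80 (SE 0.0965, adjusted p = 8.3e-08). H2-K1, a class I heavy chain, differed by -0.72 and lost its call in 2 cases with 1 library left out. With single libraries left out the difference ranged from -1.03 to -0.48. In Melan-A it rests on 20 and 31 counts in the controls and 39 and 37 with SX-682. The B16 lines were called in opposite directions, with -0.086 in B16F0 and 0.35 in B16F10. Reads of H2-K1 may be split with related class I genes.

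The remaining lists showed smaller or mixed differences. Circadian clock genes had 8 of 17 higher and 5 lower (76.5% called, against 35.8% of all genes). Bhlhe40, a repressor of the clock that hypoxia also induces, went from 254 and 258 to 609.9 and 604 CPM in Melan-A, from 90.0 and 89.0 to 55.0 and 55.6 in B16F0, and from 125 and 119.7 to 121 and 118 in B16F10, a rise in Melan-A, a fall in B16F0 and no called change in B16F10, with a difference of -1.61 (SE 0.0330, adjusted p = 4.2e-25). Per2, a core clock gene, rose in both B16 lines (2.27 and 0.62) and differed by 1.6 (SE 0.218, adjusted p = 6.0e-07). In the methionine cycle 4 of 11 were higher and 6 lower (90.9% called, against 35.8% of all genes). Mat2a, which makes S-adenosylmethionine, fell more in B16, with a difference of -0.72 (SE 0.0420, adjusted p = 2.0e-14). Metallothioneins and zinc transporters had 2 of 10 higher and 4 lower (60% called, against 35.8% of all genes). Mt1 rose in Melan-A and B16F10 and fell in B16F0 (0.92, -0.12 and 1.34), so that its mean difference of -0.31 does not describe B16F10, whose own difference from Melan-A was 0.42. Ribosome biogenesis had 6 of 25 higher and 8 lower (56% called, against 35.8% of all genes). The median log2 changes were -0.21 for Melan-A, -0.084 for B16F0 and -0.36 for B16F10. The B16 lines thus lay on either side of Melan-A. Over the alternatives with no library left out, 2 to 11 of these genes were higher and 5 to 15 lower. SR proteins and their kinases had 6 of 18 higher and 5 lower (61.1% called, against 35.8% of all genes).

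Housekeeping lists stayed near the background of 35.8%. Oxidative phosphorylation genes of the nucleus passed in 39% (11 of 77 higher and 19 lower) and proteasome subunits in 35.3% (8 of 34 higher and 4 lower). Cytosolic ribosomal proteins passed in 34.5% (16 of 84 higher and 13 lower), but here the B16 lines went apart. Against Melan-A, 28 of 84 were lower and 2 higher in B16F0, and 32 were higher and 2 lower in B16F10, with median differences of -0.068 and 0.075, so that the mean over both lines hides them. Without single libraries the count of higher ribosomal proteins ranged from 7 to 21 and that of lower ones from 12 to 22. The messenger RNAs of the mitochondrial genome were lower for 6 and higher for 1 of 13 (53.8% called, against 35.8% of all genes). Their median log2 changes were 0.15 for Melan-A, -0.90 for B16F0 and 0.13 for B16F10, so most of the median difference lay in B16F0. mt-Nd2, a subunit of complex I, went from 678 and 655 to 833 and 832 CPM in Melan-A, from 424 and 435 to 209 and 201 in B16F0, and from 969 and 911 to 869 and 910.1 in B16F10, and its difference from Melan-A passed in B16F10 too (-0.40, adjusted p = 7.4e-10, against -1.39 in B16F0). The ribosomal RNA mt-Rnr1, of the same genome, went from 429 and 438 to 453 and 460.3 CPM in Melan-A, from 88.6 and 94.3 to 282 and 297 in B16F0, and from 82.3 and 81.3 to 599.5 and 609.7 in B16F10, a difference of 2.20 (SE 0.0343, adjusted p = 7.2e-28). All genes of this genome together took 0.756% to 1.24% of the counts of a library, more with SX-682 than without in each line.

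**Figure D5:**
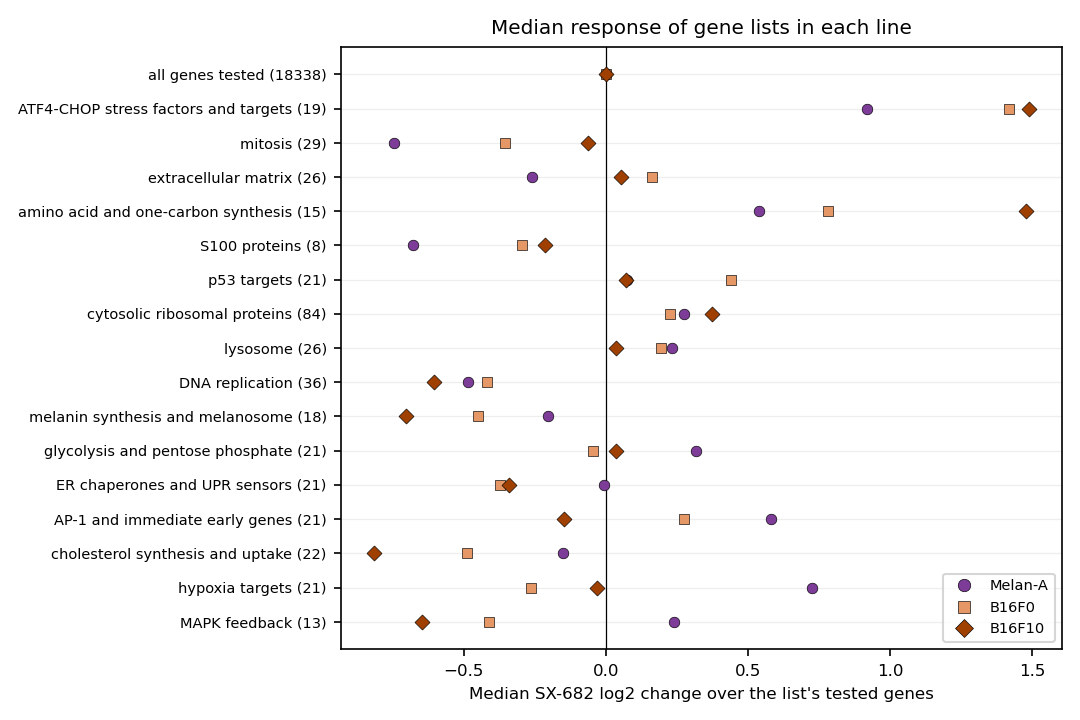
Median log2 change with SX-682 of the tested genes of each list in Melan-A, B16F0 and B16F10, for the lists described above at most length and for all genes tested, with the number of genes in brackets. Hypoxia targets, glycolysis and MAPK feedback lie above 0 in Melan-A, and mitosis lies lowest in Melan-A.

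Genes with the largest differences, among those with more than 3 counts in every library and not already named, lay partly outside the lists. Tmem117, a membrane protein linked to ER stress, rose in both B16 lines, most of all in B16F10, with 0.23, 0.99 and 4.07 and a difference of 2.30 (SE 0.248, adjusted p = 9.1e-09). Rgs9bp, an anchor for a regulator of G protein signals, rose in every line, with 1.5, 2.61 and 4.86. On the lower side, Stc1, a secreted hormone-like glycoprotein, went from 0.116 and 0.0881 to 0.154 and 0.147 CPM in Melan-A, from 4.43 and 3.94 to 0.759 and 0.852 in B16F0, and from 21.1 and 20.1 to 2.03 and 2.27 in B16F10. It was near 0.1 CPM in Melan-A and fell in both B16 lines, with a difference of -3.38 (SE 0.478, adjusted p = 1.2e-06). Apold1, an early response gene of the vessel wall, was at 7.48 and 7.2 CPM in the Melan-A controls against 6.87 and 6.75 with SX-682, 158 and 162 in the B16F0 controls against 32.5 and 31.6 with SX-682, and 321 and 328 in the B16F10 controls against 69.3 and 71.2 with SX-682. Both B16 lines dropped far below their controls and Melan-A did not pass its test, and the difference was -2.16 (SE 0.0665, adjusted p = 7.3e-21). Hs3st1, a heparan sulfate sulfotransferase, fell in both B16 lines with -3.01 and -2.08 against 0.056 in Melan-A, where its libraries overlapped.

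Of the genes that the study follows, Tfcp2l1, a transcription factor of stem and epithelial cells, rose in every line. It had 696 and 850 counts in the Melan-A controls and 969 and 1143 with SX-682, 6 and 7 against 30 and 18 in B16F0, and 0 and 1 against 22 and 15 in B16F10, which is at least 6.26-fold higher with 3 counts per library as the floor. The rise was higher in the B16 lines in the test of the difference (adjusted p = 1.8e-05), while the level stayed highest in Melan-A. Hmga2, a chromatin protein of embryonic cells, rose in Melan-A and fell in both B16 lines, with 0.18, -0.16 and -1.15 and a difference of -0.84 (SE 0.0473, adjusted p = 1.1e-14).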

How the data were processed

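RNA of 3 cell lines with and without SX-682 was sequenced in 12 libraries, 2 per group. The submitters' processing notes name cutadapt, STAR, DESeq2 and the mouse build mm10 without versions, and the counting program, its annotation and its strand setting are not given in the sources used here. The authors deposited raw, unnormalized read counts per gene, and 98% of the gene identifiers and positions were those of GENCODE M21. Library totals ran from 48876982 to 85322092 counts, so that 3 counts, used as the floor for a gene at 0, were worth between 0.033 and 0.0623 CPM, and such limits cover counting error only.

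Here the counts were tested with edgeR 4.0.16 (limma 3.58.1, R 4.3.3) after TMM scaling and edgeR's filter on low counts by group, with all 12 libraries in 1 quasi-likelihood fit, a coefficient per group, no block and a prior count of 0.125. The contrast was the mean SX-682 change of the B16 lines minus that of Melan-A, with Benjamini-Hochberg adjustment over all genes tested and a threshold of 0.05. Opposite movers passed the test of the difference and the test in each line, with the Melan-A sign opposed to both B16 signs. The 53 gene lists and the genes named were chosen with earlier results of these data known, and each list is described by counts and medians without a test. Named genes were the 10 opposite movers per direction with the largest value of their smallest change among those with a mean log2 CPM of at least 1 and libraries apart in every line, the 6 other genes with the highest and the 6 with the lowest difference, up to 3 called genes per list, and genes that the study follows. Lists met here and not described in the report are the keratinocyte markers (0 of 2 called), the leukocyte markers (1 of 2 lower) and the endothelial markers (1 of 3 higher). Of the 12 genes that the study follows 3 were higher and 6 lower (75% called, against 35.8% of all genes), and since the study knew these libraries this is not independent evidence. The fit was tested on simulated data with known differences. Alternatives were other scalings and filters, thinning to the smallest library, a minimum fold, a stricter threshold, DESeq2 1.42.0, each B16 line alone, a replicate block, and each library left out. Promoter windows are from RefSeq, build GRCm38.p6.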

Additional observations from a re-analysis of the deposited data

Results flagged for a closer look

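The test of the difference itself called 6559 genes. Listed here are the opposite movers ranked first by their smallest change, which are not the genes with the largest differences. The log2 difference was 3.44 for Cxcl1, 1.62 for Fign, 1.48 for Dusp8, 1.65 for H2bc21, 0.89 for Lrp4, 1.06 for Il17ra, 1.40 for Nhs, 0.91 for Dram1 and 0.98 for Rgma, all lower with SX-682 in Melan-A and higher in both B16 lines. G0s2 had 6.81, a fitted value that depends on the prior count since both Melan-A SX-682 libraries were at 0. In the reverse direction the log2 difference was -3.46 for Egr1, -1.88 for Hilpda, -2.09 for Gpr35, -1.30 for Hk2, -2.15 for Rgs2, -1.56 for Tnfrsf9, -1.34 for Spp1, -1.13 for Mlph and -1.60 for Eps8. Rbm12b1 had -3.70, again a fitted value, from at most 5 counts in any Melan-A library.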

How the results depend on the processing

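With a minimum fold of 1.5 for the difference (edgeR's glmTreat), 485 genes remained above the threshold in place of 6559, 247 higher and 238 lower in the B16 lines, with 68 genes that fell in Melan-A and rose in both B16 lines and 81 of the reverse kind. At an adjusted p below 0.01 these classes held 148 and 166 genes. With each library left out in turn, where the lone library of a group is assumed to vary like the others, the count ranged from 5602 to 6500 genes, from 2791 to 3229 higher and from 2808 to 3271 lower, and the opposite classes from 176 to 209 and from 222 to 266. DESeq2 called 5983 genes. Other scalings, filters and thinning stayed within 1.5 times of these counts, as did the counts of all, higher and lower calls with each B16 line alone, where the opposite classes were not counted. The alternatives moved the median of all genes by -0.0213 to 0.00621 and gave 48.4% to 52.7% higher calls. Of the list medians, counted once per list and alternative, 642 stayed within the spread between replicates and 469 moved beyond it. With no library left out, and each B16 line alone included, the median ran from -1.02 to -0.279 for MAPK feedback. It ran from 0.146 to 0.569 for amino acid synthesis, from -1.03 to -0.0419 for mitochondrial messenger RNAs and from -0.681 to -0.636 for hypoxia targets. Mt1 reversed, to 0.42, in B16F10 alone. The labels do not say what a replicate number marks. The deviations of same-numbered libraries had correlations between -0.12 and -0.029 within the lines, which cannot show whether such libraries shared a culture or batch. With that number as a block within each line 6531 genes were called (3406 higher, 3125 lower), and the opposite classes held 231 and 258. The crossed pairing of the Melan-A numbers, chosen after seeing the data, gave 6449, 3364, 3085, 229 and 256. Depth limits the genes named with few counts, and each group had only 2 libraries.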

Other observations

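Further opposite movers belonged to none of the lists and were picked for what is known of them after their values were seen. Among the genes that fell in Melan-A and rose in both B16 lines were regulators of chromatin. Arid1a, of the SWI/SNF remodeler, had log2 changes of -0.31, 0.20 and 0.093 in Melan-A, B16F0 and B16F10, and Kmt2d, a histone methyltransferase, -0.20, 0.75 and 0.19. Sema3c, a guidance signal, and its receptor Nrp2 moved together, with -0.28, 0.17 and 0.20 and -0.072, 0.53 and 0.31. Lmna, the nuclear lamin A gene, had -0.19, 0.14 and 0.12.

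Among the genes that rose in Melan-A and fell in both B16 lines, Socs3, a feedback inhibitor of cytokine receptors, had 0.28, -0.92 and -0.29, and Cebpd, a transcription factor of the acute phase, 0.56, -0.30 and -0.66. Kdelr2, which returns proteins from the Golgi to the ER, had 0.27, -0.26 and -0.33, and Sec24d, of the coat of vesicles that leave the ER, 0.35, -0.41 and -0.17. Plod2, a collagen hydroxylase, had 0.09, -0.19 and -0.38. Slc16a1, the lactate transporter MCT1, had 0.32, -0.21 and -0.70, the same direction as Ldha. How many chromatin or transport genes would be met by chance was not tested.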
